A study of Drosophila melanogaster with 63 samples.

Results

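Between 2 h and 3 h after egg laying, 62 of 9292 named genes on the arrays stood at least 0.8 log2 units higher in wild type Drosophila melanogaster embryos, and these 62 genes are described here. They were chosen by that difference itself, the mean of the 3 wild type arrays at 3 h minus the mean of the 3 at 2 h, after genes whose symbols begin with E(spl), RpL, RpS or Mcm, and ImpL2, Prx6c and CadN, had been left out. Another 11 genes of the left-out symbols and 28 features without a gene name reached the same difference, while 194 named genes lay lower at 3 h by as much. Because the wild type arrays of 2 h and 3 h chose the genes, their values at these times are given as a description with no test.

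Embryos of 3 genotypes were sampled after egg laying at 7 times (2, 3, 6, 7, 8, 9 and 10 h), and each of the 21 groups has 3 arrays, 63 in total. The genotypes are wild type, an eve mutant and an ftz mutant. Both mutant stocks carried GFP balancers, and their embryos were sorted by genotype; the labels name no allele and no wild type strain, and embryos were whole, so fewer cells of a type and less RNA per cell cannot be told apart. Each array compared the total RNA of a sample with a common reference from the whole of embryogenesis (0 to 22 h). Values are log2 ratios to this reference, scaled within each array, so they are relative to the other features. Ratios were read as sample over reference, a direction that is likely but not stated in the labels.

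In the fly, the first hours belong to transcripts loaded by the mother. The zygotic genome is then switched on while the blastoderm forms cells, and gastrulation follows. The pair-rule genes eve and ftz, which encode homeodomain proteins, act in this window and set up the expression of segment polarity genes such as gsb. Genes of many roles are first transcribed in strength at this time, among them regulators of cell fate, cell surface proteins and the machinery that copies DNA in the cell cycles after the blastoderm.

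The arrays labelled eve stood apart at these early times. Over the features other than the 62 genes, the eve 2 h arrays correlated with the wild type 2 h mean at r = 0.547 to 0.586, while the ftz 2 h arrays did so at 0.775 to 0.811. The eve 3 h arrays were as close to wild type 2 h (0.782 to 0.792) as to wild type 3 h (0.782 to 0.797). The ftz 3 h arrays were nearer to wild type 3 h (0.693 to 0.724) than to wild type 2 h (0.591 to 0.638). The mean of 11 early zygotic genes of cellularization went from 0.756 to 1.09 over the wild type 2 h arrays to -0.472 to -0.332 at 3 h, and from 0.556 to 1.16 to -0.489 to -0.196 in ftz. In eve it was 0.128 to 0.211 at 2 h and 0.215 to 0.303 at 3 h. The eve transcript itself was low on the eve 2 h arrays (-1.26, -1.30 and -1.04) but at 0.00, 0.13 and 0.37 on the eve 3 h arrays, none of them below the lowest wild type 3 h array (-0.08, -0.15 and 0.12), so these are called the arrays labelled eve. The ftz transcript read 0.74, 0.52 and 0.74 on the ftz 2 h arrays, beside 0.78, 0.85 and 0.84 in wild type and -0.49, -0.21 and -0.25 in eve. At 3 h it read -0.22, 0.09 and 0.26 in ftz and 0.19, 0.31 and 0.27 in wild type. With no allele named, these values do not check the ftz label. The eve 2 h and 3 h arrays also lie in different runs of slide numbers, with only 1 other array in the run of the eve 3 h arrays, so slide run and time can hardly be told apart there, whereas both ftz groups lie in 1 run. In wild type all 3 arrays of 3 h lie in a run that holds 1 of the 3 arrays of 2 h (replicate 3) and no early mutant array. Against that array alone the wild type difference of the 62 genes ran from 0.13 to 1.74 with a median of 0.90, and 45 genes reached 0.8. These arrays also chose the genes, and 2 h is held by 1 array, so the values are no test of the slide run.

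In wild type the 62 differences ran from 0.80 to 1.60 log2 units with a median of 0.92, a ratio of 1.74 to 3.02. For 57 of the 62 genes all 3 arrays of 3 h lay above all 3 of 2 h. The median gene went from -0.43 at 2 h to 0.55 at 3 h, so that 12 genes stood above the reference at 2 h and 43 at 3 h. The median was lower afterwards, at 0.40 at 6 h, 0.22 at 9 h and 0.24 at 10 h. The 3 h arrays chose the genes, so this decline carries no test. Single genes moved both ways: 11 lay higher at 6 h than at 3 h by over 0.5, NimC4 and nrv2 among them, and 14 lower by as much, Gad1 and Ero1L among them. The 6 h mean was at or above the 3 h mean for 27 genes, between the 2 h and 3 h means for 32 and at or below the 2 h mean for 3, namely Cyp6d4, Dph1 and bt. For 27 genes 3 h was the highest of the 7 wild type times. No pair of the 62 genes lay next to each other among the measured genes in RefSeq order.

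**Figure D1:**
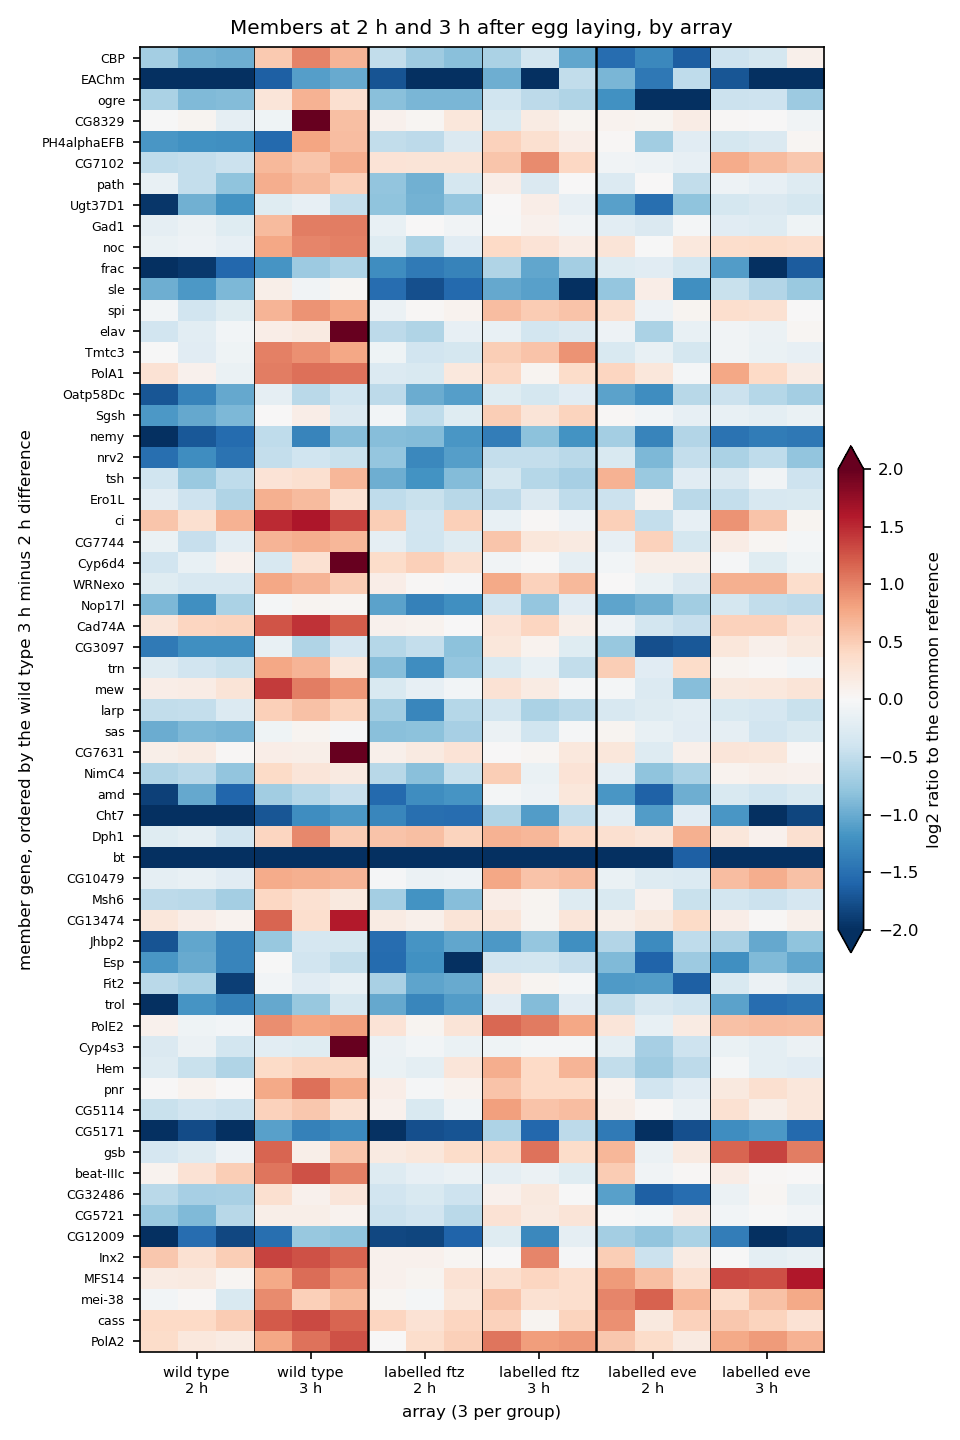
Log2 ratio of each of the 62 genes (rows, ordered by the wild type difference) on each of the 18 arrays of 2 h and 3 h (columns, 3 per group); colours saturate at -2 and 2. Wild type turns from low to high in nearly every row, by choice of the genes, the ftz arrays do so in many rows, and the eve arrays do so in fewer.

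The largest difference was that of CBP, which encodes a calcium-binding protein of the sarcoplasmic type. CBP stood at -0.68, -0.94 and -0.98 on the wild type 2 h arrays and at 0.52, 0.99 and 0.69 at 3 h. The gap junction gene ogre, an innexin, stood at -0.63, -0.89 and -0.87 and then at 0.24, 0.70 and 0.32. Both genes were thus below the reference on every wild type array of 2 h and above it on every one of 3 h. EAChm, named as an enhancer of the acetyltransferase Chameau, remained far below the reference, at -3.32, -2.16 and -1.99 and then at -1.63, -1.11 and -1.01.

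Not all members rest on 3 concordant arrays. Without 1 of the 6 wild type arrays the difference of 5 genes dropped under 0.4, while 30 genes kept at least 0.8 whichever array was left out. CG8329 read -0.08, 2.78 and 0.61 at 3 h, and its difference was 0.31 without wild type 3 h replicate 2. Replicate 3 of the same group carried 4 more of them: without it the difference was 0.03 for CG7631, 0.04 for Cyp4s3, 0.14 for Cyp6d4 (Cyp4s3 and Cyp6d4 encode cytochrome P450 enzymes) and 0.37 for elav, an RNA-binding protein of neurons. The prolyl hydroxylase gene PH4alphaEFB shows the opposite case, with wild type 3 h replicate 1 at -1.56 beside 0.78 and 0.61. At the edge of the rule mei-38 (a microtubule-associated protein), cass and PolA2 lay just inside, at 0.80 each, and CG15249, ens and Mettl2 just outside, at 0.798, 0.798 and 0.797.

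The ftz arrays, which the choice of the genes did not use, cover the same interval. In limma, with Benjamini-Hochberg adjustment over 12424 features at 0.05, 26 of the 62 genes rose from 2 h to 3 h in ftz and none fell, where 4.72% of all features rose and 4.2% fell (8.92% in all). The median difference was 0.56 against 0.00 over all features, and 54 of the 62 estimates were positive. At an unadjusted p under 0.05 the counts were 37 and 0, a threshold at which the share of all features is not given here. All 3 arrays of 3 h lay above all 3 of 2 h for 41 genes, against 17.3% of all features. Without ftz 2 h replicate 2, or without ftz 3 h replicate 1, 13 genes were called, and none fell. Whether replicate arrays come from separate collections is not in the labels, and the p-values cover no more than the scatter among the arrays.

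In the arrays labelled eve the step was smaller and ran both ways. There 18 of the 62 genes rose and 5 fell, where 13% of all features rose and 10.6% fell (23.6% in all), and the median difference was 0.11 against 0.00 over all features. Groups did not overlap, with 3 h above 2 h, for 22 genes, against 23.7% of all features. With the runs of slide numbers as a block 11 genes rose and 2 fell, where that fit called 929 of 12424 features. In that fit the median difference was 0.30 in eve, with a median SE of 0.40, beside 0.56 in ftz. The size of the eve step thus depends on how slide runs are treated. Without the 5 genes that rest on 1 wild type array the counts were the same, 18 and 5 in eve and 26 and 0 in ftz.

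**Figure D2:**
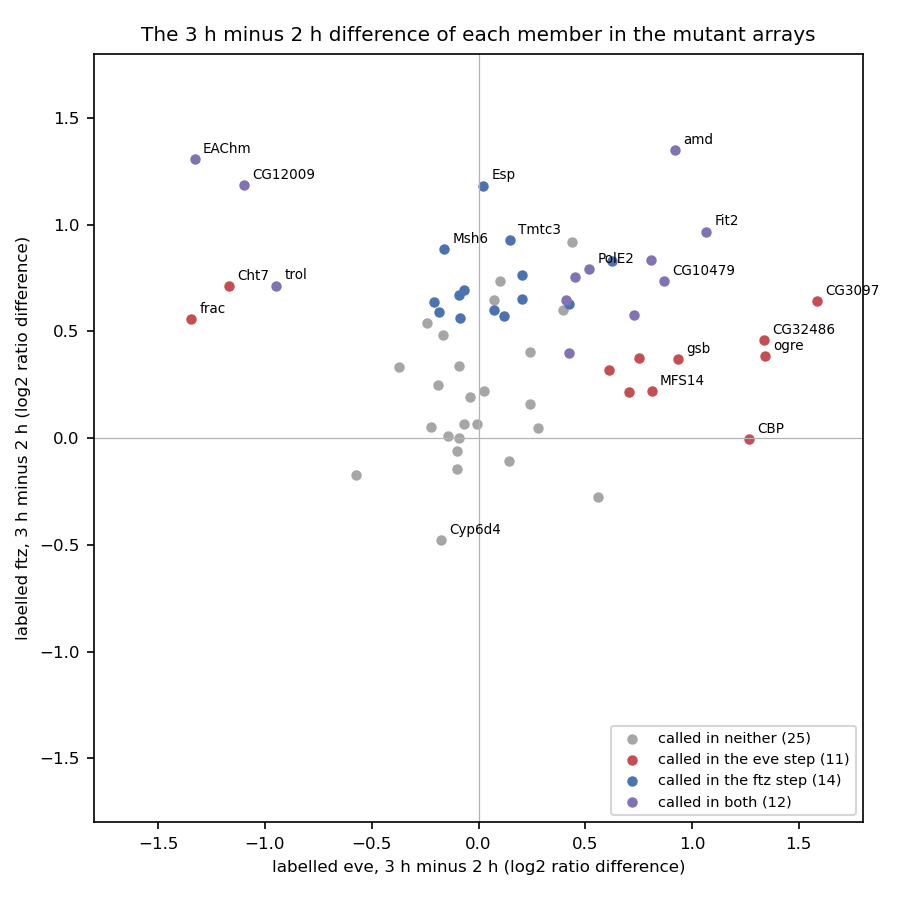
Difference between 3 h and 2 h in the arrays labelled eve (x axis) and ftz (y axis), in log2 ratio units, 1 point per gene, coloured by the limma call (adjusted p under 0.05). Nearly all points lie above 0 on the ftz axis, while on the eve axis they spread to both sides, with EAChm, CG12009, frac, Cht7 and trol at upper left.

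The 2 sets of mutant arrays share no array, and 9 genes rose in both: amd, CG10479, Fit2, Nop17l, pnr, PolA2, PolE2, Ugt37D1 and WRNexo. They are 14.5% of the 62 genes, where 0.95% of all features rose in both. With slide runs as a block all 9 rose in ftz, and in eve only CG10479, Fit2, PolE2 and WRNexo did. Another 9 genes rose in eve and were not called in ftz (14.5%, against 11.7% of all features). In turn 14 rose in ftz and were not called in eve (22.6%, against 3.09%). A further 3 rose in ftz and fell in eve (4.84%, against 0.676%), and 2 fell in eve alone (3.23%, against 9.1%). The last 25 were called in neither (40.3%, against 70.2%).

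Of the 9 that rose in both, amd, an enzyme related to dopa decarboxylase that is needed for cuticle, moved most in ftz. It stood at -1.55, -1.24 and -1.17 at 2 h in ftz and at -0.03, -0.11 and 0.22 at 3 h, a rise of 1.35 (SE 0.19; limma, Benjamini-Hochberg adjusted p = 3.36e-06). In eve it stood at -1.17, -1.62 and -0.97 and then at -0.31, -0.39 and -0.31, a rise of 0.92 (SE 0.19; adjusted p = 0.000366; 0.155 with slide runs as a block). The groups did not overlap in either genotype. Fit2, a kindlin that acts with integrins, rose by 0.97 in ftz (SE 0.21; adjusted p = 0.00167) and by 1.07 in eve (SE 0.21; adjusted p = 0.000195). CG10479, given here without a role, read between -0.27 and -0.02 on all 6 mutant arrays of 2 h and between 0.57 and 0.78 on all 6 of 3 h. The GATA factor gene pnr, which patterns the dorsal ectoderm, rose by 0.40 in ftz (SE 0.13; adjusted p = 0.0461) and by 0.43 in eve (SE 0.13; adjusted p = 0.0144). The ftz call of pnr was lost whichever of the 6 arrays was left out, and its eve call without eve 2 h replicate 2 or 3 or eve 3 h replicate 2. Ugt37D1, a glucuronosyltransferase gene, rose by 0.83 in ftz (SE 0.24; adjusted p = 0.0189) and by 0.81 in eve (SE 0.24; adjusted p = 0.011), with calls lost in 4 of 6 and 1 of 6 leave-one-out fits.

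Among the 62 are 5 genes of DNA replication and repair: PolA1 and PolA2, subunits of the DNA polymerase alpha that starts new strands, PolE2, a subunit of polymerase epsilon, Msh6 of mismatch repair, and WRNexo, the exonuclease related to the human Werner protein. PolE2 stood at 0.08, -0.09 and -0.06 on the wild type 2 h arrays and at 0.93, 0.78 and 0.81 at 3 h. On the ftz arrays it went from 0.27, 0.06 and 0.26 to 1.15, 1.03 and 0.77, a rise of 0.79 (SE 0.10; limma, Benjamini-Hochberg adjusted p = 1.91e-07). In eve the same gene rose by 0.52 (SE 0.10; adjusted p = 0.000107), and its groups did not overlap in any genotype. PolA2 rose by 0.64 in ftz (SE 0.14; adjusted p = 0.000873) and by 0.41 in eve (SE 0.14; adjusted p = 0.0221), the latter not without eve 2 h replicate 3 or eve 3 h replicate 1 or 2. Of the 5 genes 4 rose in ftz, 3 rose in eve and none fell. The ftz call of WRNexo (0.58, SE 0.17; limma, adjusted p = 0.0249) was kept in 2 of 6 leave-one-out fits, lost without ftz 2 h replicate 2 or 3 or ftz 3 h replicate 1 or 3. PolA1 did not pass in either, at 0.40 (SE 0.16) and 0.24 (SE 0.16).

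Msh6 differed between the mutants. It read -0.68, -1.20 and -0.85 at 2 h in ftz and 0.13, 0.05 and -0.26 at 3 h, a rise of 0.88 (SE 0.20; limma, Benjamini-Hochberg adjusted p = 0.00248). In eve it read -0.30, 0.09 and -0.45 and then -0.37, -0.43 and -0.34. The eve step was smaller than the ftz step by -1.04 (SE 0.29; limma, adjusted p = 0.00864), but this difference was 0.19 (SE 0.34; adjusted p = 0.8) with slide runs as a block. Of 15 other measured genes of the cell cycle and replication, 6 rose and 2 fell in ftz, and 2 rose and 3 fell in eve. Mcm5, a subunit of the replicative helicase, rose by 1.13 in ftz (SE 0.19) and read 0.21 in eve (SE 0.19).

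Of 6 patterning and signalling genes, 3 rose in ftz (spi, noc and pnr), 2 rose in eve (gsb and pnr) and none fell. The 6 are spi, which encodes the main ligand of the EGF receptor, ci, the transcription factor at the end of the Hedgehog pathway, gsb, a Pax-type segment polarity factor, and the zinc finger factors tsh and noc besides pnr. In wild type spi went from -0.05, -0.38 and -0.25 to 0.69, 0.89 and 0.77, and ci from 0.56, 0.32 and 0.69 to 1.49, 1.61 and 1.35. On the ftz arrays spi rose by 0.57 (SE 0.18; limma, Benjamini-Hochberg adjusted p = 0.0349, lost whichever of the 6 arrays was left out) and noc by 0.65 (SE 0.18; adjusted p = 0.0137, lost without ftz 2 h replicate 2 or ftz 3 h replicate 1). The mutant values of ci did not pass, at -0.28 (SE 0.35) in ftz and 0.56 (SE 0.35) in eve, and its arrays overlap. On the eve arrays gsb read 0.67, -0.11 and 0.17 at 2 h and 1.16, 1.35 and 1.02 at 3 h, a rise of 0.93 (SE 0.21; limma, adjusted p = 0.000663; adjusted p = 0.0723 with slide runs as a block). In ftz gsb read 0.18, 0.22 and 0.36 and then 0.42, 1.08 and 0.37, which did not pass (0.37, SE 0.21). Of the 10 measured segment polarity genes, gsb and ci included, inv rose besides gsb in eve and none was called in ftz.

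Among genes of the matrix, of adhesion and of cell junctions, 4 of 10 rose in ftz (Fit2, sas, trn and trol) and none fell, while in eve 4 rose (ogre, mew, Cad74A and Fit2) and 2 fell (frac and trol). The surface protein gene sas stood at -0.98, -0.91 and -0.92 on the wild type 2 h arrays and at -0.09, 0.05 and -0.03 at 3 h. It rose in ftz by 0.59 (SE 0.14; adjusted p = 0.00344 in limma) and read -0.18 in eve (SE 0.14), a difference between the steps of -0.77 (SE 0.20; adjusted p = 0.00474), which was also called with slide runs as a block (-1.03, SE 0.29). For trn, a cell surface protein with leucine-rich repeats, the ftz rise was 0.64 (SE 0.21; adjusted p = 0.0437), called in 1 of 6 leave-one-out fits, that without ftz 2 h replicate 3. The integrin alpha subunit gene mew rose in eve by 0.61 (SE 0.22; limma, adjusted p = 0.0342), a call that was lost without any one of the eve 3 h arrays or without eve 2 h replicate 3, and with slide runs as a block. The cadherin gene Cad74A rose in eve by 0.70 (SE 0.15; adjusted p = 0.000419; adjusted p = 0.271 with slide runs as a block). Inx2, the second innexin among the 62, read 0.25 in ftz (SE 0.24) and -0.19 in eve (SE 0.24), neither called.

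All 5 genes that fell in eve had estimates above 0 in ftz, and their steps differed. They are EAChm, CG12009, frac, an extracellular matrix protein gene, Cht7, a chitinase gene, and trol, which encodes the basement membrane proteoglycan perlecan. Opposite signs were not particular to these 5, as those of Msh6 and sas above show. With slide runs as a block only frac (limma, adjusted p = 0.0473) and Cht7 fell in eve. In ftz CG12009, EAChm and trol rose, while frac (0.56, SE 0.23) and Cht7 (0.71, SE 0.25) did not pass. The frac transcript stood at -2.12, -1.94 and -1.57 on the wild type 2 h arrays but at -0.26, -0.23 and -0.37 on the eve 2 h arrays. At 3 h it stood at -1.18, -0.73 and -0.61 in wild type and at -1.12, -2.10 and -1.67 in eve. The eve 2 h arrays of frac lay above every wild type and ftz array of 2 h and 3 h. In mean, eve minus wild type was 1.59 at 2 h and -0.79 at 3 h, and the part of each time in the fall was not tested.

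The fall of frac in eve was -1.34 (SE 0.23; limma, Benjamini-Hochberg adjusted p = 1.52e-05). The ftz arrays read -1.25, -1.42 and -1.33 at 2 h and -0.60, -1.04 and -0.68 at 3 h, and the eve step was below the ftz step by -1.90 (SE 0.32; adjusted p = 3.05e-05). CG12009 read -0.67, -0.79 and -0.63 on the eve 2 h arrays and -1.39, -2.08 and -1.92 at 3 h, against -1.82, -1.83 and -1.60 and then -0.24, -1.28 and -0.18 in ftz. The 2 orders are reversed with no overlap within a genotype. The steps of CG12009 were -1.10 (SE 0.25; adjusted p = 0.000944; 0.359 with slide runs as a block) in eve and 1.18 (SE 0.25; adjusted p = 0.000997) in ftz, and they differed by -2.28 (SE 0.36; adjusted p = 8.18e-06). For EAChm the difference was -2.63 (SE 0.61; adjusted p = 0.00172), for Cht7 -1.88 (SE 0.35; adjusted p = 0.00016) and for trol -1.66 (SE 0.31; adjusted p = 0.000118). With slide runs as a block the difference remained called for CG12009, frac and Cht7, and was -2.02 (SE 0.97; adjusted p = 0.2) for EAChm and -1.52 (SE 0.50; adjusted p = 0.0501) for trol. The ftz calls of EAChm and of trol were each kept in 2 of 6 leave-one-out fits, both lost without ftz 2 h replicate 2 or 3 or ftz 3 h replicate 1 or 3, and the eve call of EAChm was lost without eve 2 h replicate 3 or eve 3 h replicate 2 or 3.

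At 3 h itself, frac, CG12009, Cht7 and trol had lower levels in eve than they had in ftz. CG12009 was lower by -1.23 (SE 0.25; adjusted p = 0.00145 in limma), and the O-mannosyltransferase gene Tmtc3 by -0.78 (SE 0.13; adjusted p = 0.000169). Of the 62 genes 8 were lower in eve at 3 h and 1, the transporter gene MFS14, was higher, by 1.04 (SE 0.20; adjusted p = 0.000649), where 2.34% of all features were lower and 3.01% higher (5.35% in all). MFS14 read 1.32, 1.29 and 1.60 on the eve 3 h arrays and 0.32, 0.42 and 0.33 on those of ftz. This comparison was the least steady. Only 3 genes were called without eve 3 h replicate 2 or without ftz 3 h replicate 1, and 4 without eve or ftz 3 h replicate 3. With slide runs as a block only Cht7 was called, where that fit called 249 of 12424 features. The calls of Cht7 and frac were lost without eve 3 h replicate 2 or 3 or ftz 3 h replicate 1 or 3, and that of trol without eve 3 h replicate 2 or ftz 3 h replicate 1 or 3.

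The steps of the 2 mutants differed for 16 of the 62 genes, 4 larger in eve and 12 smaller, where 8.6% and 7.93% of all features were called in these directions (16.5% in all). With slide runs as a block 2 were larger and 4 smaller (931 of 12424 features called in that fit). The median difference of the steps over the 62 genes was -0.23, and -0.06 with that block. Array weights gave 7 and 21, a fit for which the share of all features is not given here. The 4 genes with the larger step in eve are CBP, ogre, CG3097 and CG32486. CBP read -1.52, -1.29 and -1.65 on the eve 2 h arrays and -0.41, -0.35 and 0.10 at 3 h, a rise of 1.27 (SE 0.20; limma, Benjamini-Hochberg adjusted p = 5.49e-06). On the ftz arrays it read -0.49, -0.71 and -0.84 and then -0.64, -0.37 and -1.04, and all of these lay below every wild type 3 h array. The largest member of the set in wild type thus had no step in ftz beyond the spread of its arrays (-0.01, SE 0.20), and the steps differed by 1.27 (SE 0.29; adjusted p = 0.00128).

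For ogre the eve 2 h arrays were also low, at -1.20, -2.37 and -2.03, and the 3 h arrays read -0.44, -0.41 and -0.73. Its eve rise was 1.34 (SE 0.24; limma, Benjamini-Hochberg adjusted p = 2.94e-05) and its ftz value 0.38 (SE 0.24). The difference of the steps, 0.96 (SE 0.33; adjusted p = 0.0407), was kept in 2 of 12 leave-one-out fits, those without eve 2 h replicate 1 or eve 3 h replicate 3, and not with slide runs as a block (adjusted p = 0.0743). CG3097 and CG32486 had the same form, with eve rises of 1.59 (SE 0.22) and 1.34 (SE 0.16) and ftz values of 0.64 (SE 0.22) and 0.46 (SE 0.16). Their steps differed by 0.94 (SE 0.31; adjusted p = 0.029) and 0.88 (SE 0.23; adjusted p = 0.00613), and the call of CG3097 was kept in 5 of 12 leave-one-out fits.

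For other genes the ftz step exceeded the eve step. Tmtc3 read -0.08, -0.38 and -0.35 in ftz at 2 h and 0.49, 0.58 and 0.90 at 3 h, a rise of 0.93 (SE 0.13; limma, Benjamini-Hochberg adjusted p = 3.7e-06). In eve it read -0.30, -0.15 and -0.35 and then -0.07, -0.14 and -0.16. The steps of Tmtc3 differed by -0.78 (SE 0.19; adjusted p = 0.00299), and by -0.40 (SE 0.29; adjusted p = 0.444) with slide runs as a block. Esp, a putative transporter named for its epidermal stripes and patches, rose by 1.18 in ftz (SE 0.23; limma, adjusted p = 0.000249) and read 0.02 in eve (SE 0.23), a difference of -1.16 (SE 0.32; adjusted p = 0.00824; 0.0816 with slide runs as a block).

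A group of genes was high on the wild type 3 h arrays alone among the early arrays. Gad1, which encodes glutamate decarboxylase, stood at -0.18, -0.11 and -0.24 on the wild type 2 h arrays and at 0.63, 1.02 and 1.03 at 3 h. On the 12 mutant arrays of 2 h and 3 h it lay between -0.29 and 0.08. The immunoglobulin gene beat-IIIc, of a family that acts in axon guidance, stood at 0.07, 0.29 and 0.50 at 2 h and at 1.12 ± 0.15 (SD, n = 3) at 3 h, and on the mutant arrays between -0.26 and 0.51. The oxidoreductase gene Ero1L, which acts in disulfide formation in the endoplasmic reticulum, read 0.72, 0.63 and 0.30 on the wild type 3 h arrays and at most 0.07 on any mutant array of 2 h or 3 h. In none of the 3 did a mutant step pass. The wild type arrays of 3 h chose these genes, so their contrast with the mutants carries no test, and no early mutant array shares their run of slide numbers.

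**Figure D3:**
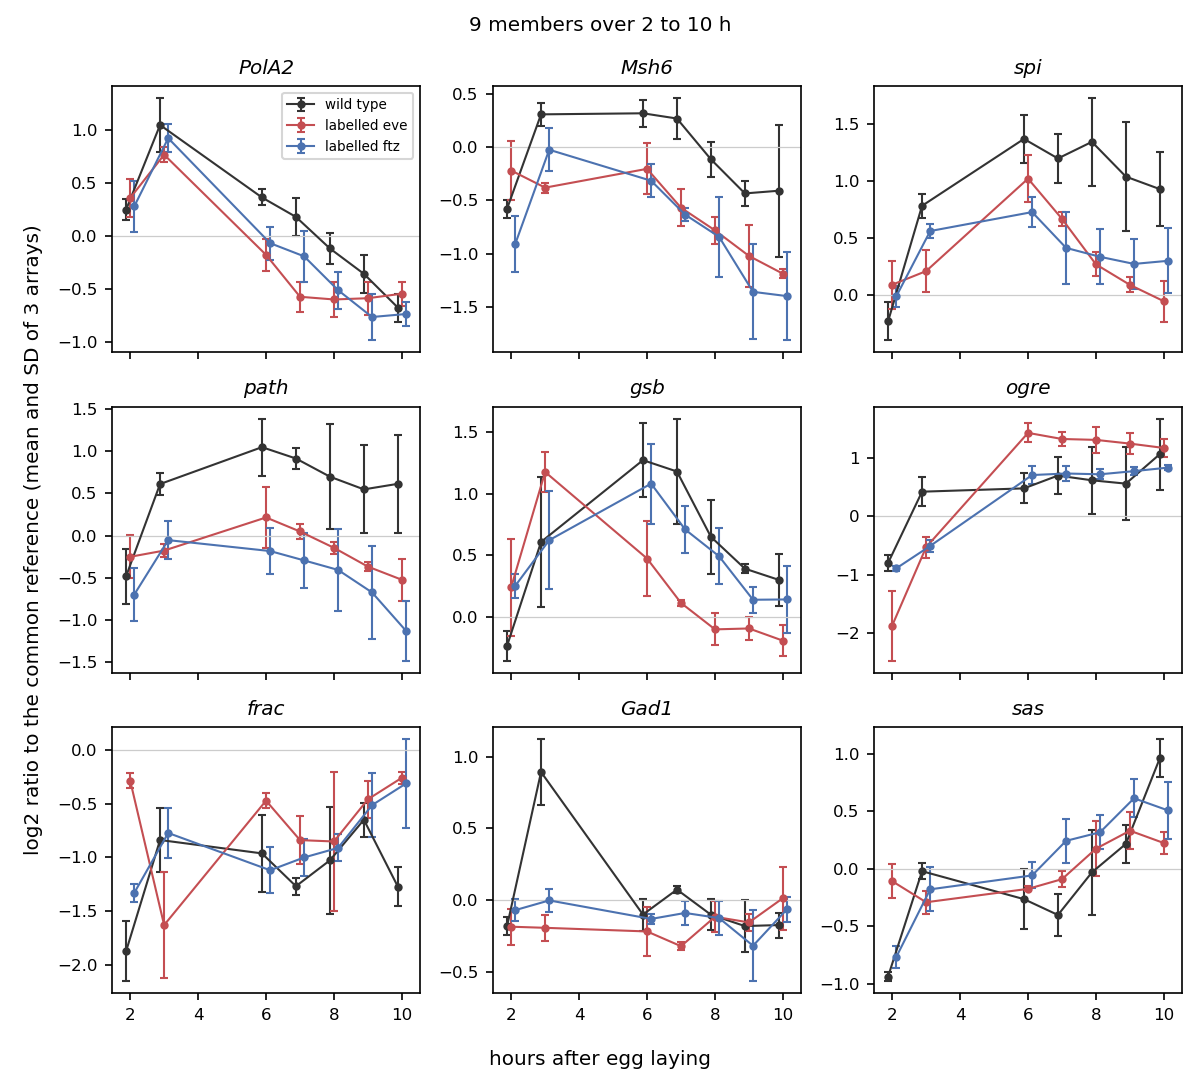
Mean log2 ratio (points) with the SD of 3 arrays (bars) of 9 of the 62 genes over 2 to 10 h in wild type and in the arrays labelled eve and ftz. Gad1 peaks at 3 h in wild type and nowhere else, PolA2 is highest at 3 h in every genotype, and spi, path and Msh6 lie lower in both mutants over most of 6 to 10 h.

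Of the remaining genes, those of the nucleolus, translation and chromatin gave 2 rises of 5 in ftz, of EAChm and of Nop17l, related to a factor of small nucleolar RNP assembly. Nop17l rose by 0.76 in ftz (SE 0.12; limma, Benjamini-Hochberg adjusted p = 2.35e-05) and by 0.45 in eve (SE 0.12; adjusted p = 0.00517; 0.0569 with slide runs as a block). The nucleolar gene sle went from -0.98, -1.15 and -0.89 to 0.11, -0.08 and 0.04 in wild type, but its ftz arrays of 3 h read -1.03, -1.09 and -2.06, all below every wild type 3 h array. Of 16 measured genes of ribosome biogenesis, Nop17l included, 2 rose and none fell in ftz, and 5 rose and 1 fell in eve. The transporter gene path, which carries amino acids, went from -0.15, -0.48 and -0.81 to 0.73, 0.63 and 0.47 in wild type. Its step did not pass in ftz (0.64, SE 0.27) or eve (0.07, SE 0.27). The giant muscle protein gene bt was near the bottom of the scale throughout, with 2 of its wild type 2 h arrays at -3.74, the lowest value in the table. Of 12 measured muscle genes, bt included, none was called in ftz, and 1 rose and 1 fell in eve.

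In wild type between 6 h and 10 h, on arrays the choice did not use, 6 of the 62 genes rose and 13 fell, where 6.63% of all features rose and 5.98% fell (12.6% in all). All 5 genes of DNA replication and repair fell. PolA2, at 0.36 ± 0.08 (SD, n = 3) at 6 h, stood at -0.68 ± 0.13 (SD, n = 3) at 10 h, a fall of -1.04 (SE 0.14; limma, Benjamini-Hochberg adjusted p = 1.31e-07). PolA1 fell by 1.08 (SE 0.16), WRNexo by 1.19 (SE 0.17), Msh6 by 0.73 (SE 0.20) and PolE2 by 0.60 (SE 0.10). Of the 15 other genes of the cell cycle and replication 9 fell and none rose. With slide runs as a block the fall of Msh6 was -0.15 (SE 0.22) and no longer called, and the other 4 genes of replication and repair still fell.

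The deepest fall was that of Cad74A, from 1.09 ± 0.32 (SD, n = 3) at 6 h to -0.22 ± 0.12 (SD, n = 3) at 10 h, by -1.32 (SE 0.15; limma, Benjamini-Hochberg adjusted p = 6.73e-09). The segment polarity gene gsb fell by 0.97 (SE 0.21; adjusted p = 0.000645), and with slide runs as a block by 0.75 (adjusted p = 0.103). Against these, sas rose from -0.26 ± 0.26 (SD, n = 3) to 0.96 ± 0.16 (SD, n = 3), by 1.23 (SE 0.14; adjusted p = 7.16e-09), so that this gene had a second rise after that of 3 h. Ero1L likewise read 0.55 ± 0.22 (SD, n = 3) at 3 h, -0.39 ± 0.09 (SD, n = 3) at 6 h and 0.49 ± 0.09 (SD, n = 3) at 10 h, the last step a rise of 0.88 (SE 0.15; adjusted p = 2.5e-05). Rises of elav (0.97, SE 0.29; adjusted p = 0.0161), Esp (0.94, SE 0.23; adjusted p = 0.00222), PH4alphaEFB (0.80, SE 0.27; adjusted p = 0.0431) and Nop17l (0.63, SE 0.12; adjusted p = 0.000195) complete the 6. The call of PH4alphaEFB was lost whichever of the 6 arrays was left out, and that of elav without wild type 6 h replicate 1 or 10 h replicate 2 or 3.

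**Figure D4:**
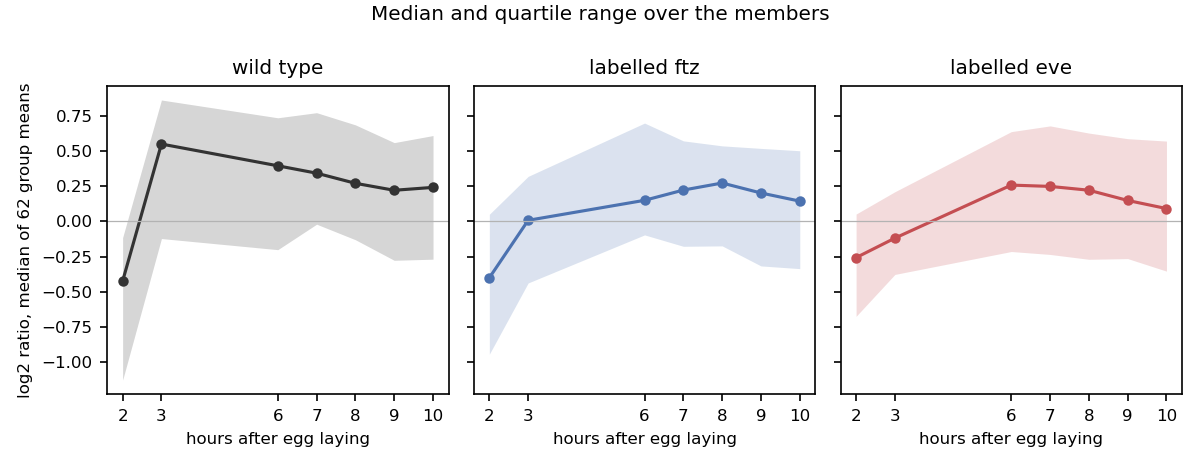
Median (points) and quartile range (band) of the 62 group means at each time, in log2 ratio units, by genotype. The wild type median jumps from -0.43 to 0.55 between 2 h and 3 h, by choice of the genes, and the medians of the 3 genotypes lie between 0.09 and 0.40 from 6 h on.

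Over 6 to 10 h each mutant was compared with wild type, with 15 arrays per genotype, 3 at each of 5 times, taken as independent. In eve 16 of the 62 genes were higher and 20 lower, where 19.6% of all features were higher and 19.8% lower (39.4% in all). In ftz 13 were higher and 23 lower, where 20.7% were higher and 19.7% lower (40.4% in all). The shares of the 62 genes that were higher, 25.8% in eve and 21% in ftz, lie near the background, and those that were lower, 32.3% and 37.1%, lie above it. In ftz 6 genes were higher and 13 lower with slide runs as a block, where that fit called 2122 of 12424 features. With the 5 times averaged by title number, so 3 values per genotype, 11 genes were higher and 14 lower in eve, and 9 and 17 in ftz. The share of all features called in that fit is not given here. Both comparisons use the same wild type arrays, so the 2 sets of values are not independent.

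All 5 genes of DNA replication and repair were lower in each mutant. PolE2 had a lowest, median and highest array of -0.18, 0.18 and 0.61 in wild type, -0.31, -0.15 and 0.10 in eve and -0.63, -0.16 and 0.08 in ftz, so the groups overlap. PolE2 was lower by -0.37 in eve (SE 0.04; limma, Benjamini-Hochberg adjusted p = 8.03e-09) and by -0.42 in ftz (SE 0.04; adjusted p = 2.18e-10). Msh6 was lower by -0.68 in eve (SE 0.09) and by -0.83 in ftz (SE 0.09). The other 3 lay between -0.58 and -0.33, and all 10 differences were also called with slide runs as a block. Of the 15 other genes of the cell cycle and replication 11 were lower in eve and 13 in ftz, and none was higher in either.

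**Figure D5:**
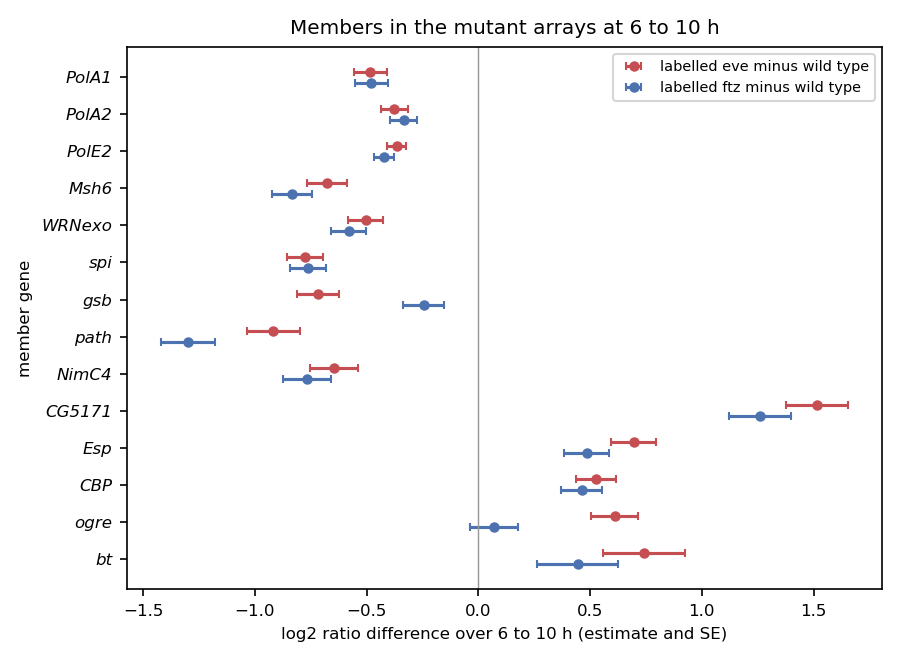
Difference of each mutant from wild type over 6 to 10 h (points) with its standard error (bars), in log2 ratio units, for the 5 genes of DNA replication and repair and 9 further genes of the 62 (15 arrays per genotype). The 5 replication and repair genes, spi, gsb, path and NimC4 lie below 0 in both mutants, while CG5171, Esp, CBP and bt lie above 0 in both.

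Beside that of Msh6, the largest late differences lay in genes of other roles. The amino acid transporter gene path was lower, with a median of 0.87 over the wild type arrays, -0.15 in eve and -0.40 in ftz. The ligand gene spi had medians of 1.27, 0.30 and 0.28, and was lower by -0.78 in eve (SE 0.08; limma, Benjamini-Hochberg adjusted p = 1.85e-10) and by -0.76 in ftz (SE 0.08; adjusted p = 2.26e-10). NimC4, a receptor for the uptake of dying cells, was among the highest of the 62 genes in wild type, with a lowest, median and highest array of 1.17, 1.72 and 2.43. It was lower by -0.65 in eve (SE 0.11; adjusted p = 4.5e-06) and by -0.77 in ftz (SE 0.11; adjusted p = 1.51e-07).

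The late level of gsb was lower by -0.72 in eve (SE 0.09) and by -0.25 in ftz (SE 0.09; adjusted p = 0.0299 in limma, and 0.119 with slide runs as a block). At 3 h its arrays overlapped, from 1.02 to 1.35 in eve and from 0.11 to 1.16 in wild type. CG5171 went the other way, with a median of -0.94 in wild type, 0.89 in eve and 0.34 in ftz, and was higher by 1.52 (SE 0.14) and 1.26 (SE 0.14). Its eve mean was -0.76 at 6 h, beside -0.78 in wild type, and 1.45 at 10 h, beside -1.13. The eve arrays ran from -1.37 to 1.91 and those of wild type from -1.65 to 0.28, so they overlap. CBP, the gene with the largest wild type step, was higher by 0.53 in eve (SE 0.09; adjusted p = 7.66e-06) and by 0.46 in ftz (SE 0.09; adjusted p = 5.57e-05), although at 3 h all 6 mutant arrays lay below wild type. The innexin gene ogre was higher in eve by 0.61 (SE 0.11; adjusted p = 8.57e-06), with arrays from 1.03 to 1.61 beside 0.03 to 1.61 in wild type. For bt the difference was 0.74 in eve (SE 0.18; adjusted p = 0.00104) and 0.44 in ftz (SE 0.18; adjusted p = 0.0461), the latter kept in 12 of 30 leave-one-out fits and not with slide runs as a block (adjusted p = 0.324). Of the 12 muscle genes, bt included, 7 were higher and 2 lower in each mutant.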

How the data were processed

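The authors deposited 1 table of log2 ratios, 1 column per array. The tool named in the submitters' processing notes is limma (no version). How background was corrected or features were filtered is not given in the sources, and the base of the logarithm and the side of the reference were taken as said in the report. All arrays held the same sorted values to within 0.000784, so they had been quantile normalized and only order within an array is kept. Of 20000 rows 13228 held values; 10096 had 1 gene symbol (platform annotation; 10093 brought up to date through the gene ID), 220 had several and 2912 none. Rows of a symbol were averaged, which gave 12424 features.

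Groups followed the labels. A mean per group was fitted to all 63 arrays in limma 3.58.1 (R 4.3.3, 42 residual degrees of freedom), with 2-sided contrasts, empirical Bayes moderation and Benjamini-Hochberg adjustment within a contrast at 0.05; a gene under that threshold is said to be called, to rise or to fall. The wild type 2 h and 3 h arrays entered no tested contrast. The code was tested on simulated data. The members, gene lists and role groups were chosen with earlier results of these data known, and role groups after the members were seen. Named genes are the 20 largest wild type steps, those at the edge of the rule, the members of lists and the 5 largest in each direction of each contrast; others were named after their values were seen. Slide runs come from slide numbers in the titles, split at gaps above 5. Title numbers were not used to pair the arrays: deviations of same-numbered arrays correlated at -0.117 to 0.330, highest between wild type 6 h and 10 h. Late mutant arrays were not checked in this way within a genotype. Gene order was taken from RefSeq (Release 6 plus ISO1 MT). Promoter and protein sequences were not analysed here.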

Additional observations from a re-analysis of the deposited data

Results flagged for a closer look

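Of the 16 genes whose step from 2 h to 3 h differed between the arrays labelled eve and ftz (limma, test of the difference itself), 9 are given here, the 5 largest differences below 0 and all 4 above 0. The eve step was below the ftz step by -2.63 log2 units for EAChm, -2.28 for CG12009, -1.90 for frac, -1.88 for Cht7 and -1.66 for trol, and above it by 1.27 for CBP, 0.96 for ogre, 0.94 for CG3097 and 0.88 for CG32486. The first 5 read higher on the eve 2 h arrays than on those of wild type, and the other 4 read lower there in mean. The part that the slide run, or the low likeness of the eve 2 h arrays to wild type, has in these differences was not tested.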

How the results depend on the processing

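Counts of called genes depend on the threshold of the wild type step. At 0.6 there were 202 members, of which 73 were called in the eve step, 82 in the ftz step, 59 in the difference of steps, 27 in eve minus ftz at 3 h, 60 in wild type from 6 h to 10 h, 111 in eve and 108 in ftz over 6 to 10 h. At 1.0 there were 15 members, with 6, 5, 5, 2, 4, 8 and 10 called in that order. With slide runs as a block 13 were called in the eve step, 6 in the difference, 1 in eve minus ftz at 3 h and 19 in ftz over 6 to 10 h. Array weights gave 28 in the difference and 26 in eve minus ftz at 3 h. Calls of at least 1.5-fold over 6 to 10 h numbered 9 in eve and 8 in ftz. Leaving out 1 array gave 13 to 23 in the ftz step, 3 to 11 in eve minus ftz at 3 h, 19 to 24 in the eve step, 12 to 17 in the difference and 15 to 18 in wild type. The share of all features is not given here for the fits with array weights or with 1 array left out. Their counts are therefore no result about the members. A replicate block gave 25, 30, 17, 10, 20, 35 and 38, while the main fit pairs no arrays. Members that do not rest on 1 wild type array, and fits without the 6 early eve arrays, were chosen after seeing the data; they moved no count by over 1.5 times. Among the calls of the main fit 2 signs turned with slide runs as a block, the Msh6 difference of steps (0.19) and frac in ftz over 6 to 10 h (-0.05, from 0.26). Signs of estimates that were not called were not counted. The cause of each change was not tested.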
